A study of Mus musculus with 48 samples.

Results

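The 32 listed genes of fatty acid oxidation and of PPAR-alpha were followed through 48 mouse lungs, and 29 of them were measured by a probe set with 1 gene symbol, out of 12393 genes measured in this way. The list was given by name, as genes whose products take up, activate, shuttle and oxidize fatty acids, with the regulators Ppara and Ppargc1a and well known targets of PPAR-alpha. Acsl1, Cpt1b and Ucp2 were not analysed here. All animals were male C57BL/6 mice, 15 weeks old when exposure began, and 1 Affymetrix array was hybridised with lung RNA of each animal. Obese animals (DIO, diet-induced obese) were raised on food in which fat gave 60 kcal%, begun at 6 weeks of age and kept for 9 weeks before the study. The food of regular weight animals (RW) had about 5 kcal% fat. Within each diet 8 animals breathed mainstream cigarette smoke (MS), 8 breathed sidestream smoke (SS) and 8 breathed filtered air (SC, sham control), by the nose alone, 5 hours a day for 8 exposures within 2 weeks. The lungs were collected 1 day after the last exposure. The groups are therefore DIO-MS, DIO-SS, DIO-SC, RW-MS, RW-SS and RW-SC, and a single array is named by its group and animal, as in DIO-SC-3. The labels also speak of a study of 4 days with LPS, and whether any animal had that treatment is not known here.

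Fatty acids enter a cell with the help of transport and binding proteins, are tied to coenzyme A, cross the inner mitochondrial membrane as carnitine esters and are then shortened in repeated rounds of beta-oxidation. Electrons from those rounds reach the respiratory chain through the electron transfer flavoproteins, and very long chains are first shortened in peroxisomes. PPAR-alpha is a nuclear receptor that binds fatty acids and, with its partner RXR, raises transcription of most of these genes, and Ppargc1a encodes a coactivator of it. Heart, slow muscle and brown fat burn much fat, whereas in the lung the pathway is best known from alveolar type 2 cells and macrophages.

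Values are log2 signals, a difference is the mean of the first named group minus that of the second, and a value after ± is the standard error of the limma fit unless SD is written. A gene was called at a Benjamini-Hochberg adjusted p below 0.05 over all 12393 genes of a comparison. Shares of all genes called, risen or fallen are at this threshold, and none is given for counts at an unadjusted p. On all 48 arrays 2 defining markers of lung, Sftpc and Scgb1a1, lay near the highest signal of the data, 15.27. Sftpc, the surfactant protein of type 2 cells, lay between 14.97 and 15.13 and Scgb1a1, the secretory protein of club cells, between 15.08 and 15.27. Arrays DIO-SC-3, DIO-SC-7 and RW-SS-6 carried transcripts of other tissues. These arrays and the marker lists were chosen with earlier results of these data known, so the marker counts describe the arrays and are no test. All 11 skeletal muscle markers and all 5 squamous epithelium markers were above every array of the group that is not among these 3 on DIO-SC-3, all 8 white fat and all 5 thymus markers on DIO-SC-7, and all 8 white fat and all 10 cardiac muscle markers on RW-SS-6. So were 4 brown fat markers, among them Ucp1, on each of the 3 arrays. Against the same arrays, type 2 cell markers had median deviations of -0.55 on DIO-SC-7, -0.23 on DIO-SC-3 and -0.15 on RW-SS-6. Type 1 cell markers had -0.85, -0.31 and -0.27, and endothelial markers -0.79, -0.39 and -0.10. Club cell markers had -0.32, -0.17 and 0.07, and alveolar macrophage markers -0.83, -0.14 and -0.21. Fewer cells of a type and less RNA per cell cannot be told apart in RNA of a whole lung. Results that include these arrays are given with all 48 arrays and without the 3, and the 3 also enter the pooled spread of every other comparison.

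The members were high on these arrays too, each of which is set here against the arrays of its group that are not among the 3. On DIO-SC-7, 26 of 29 members lay above all of those DIO-SC arrays, where 25.3% of all genes did so. RW-SS-6 had 23 of 29 members above those of RW-SS (14.3% of all genes), and DIO-SC-3 had 18 of 29 (15.9% of all genes). The median member lay 1.47 above the mean of those arrays on DIO-SC-7, 1.11 on RW-SS-6 and 0.35 on DIO-SC-3, while the median of all genes lay between -0.08 and -0.05 on these arrays. Pdk4 deviated most, by 3.47 on DIO-SC-7, 3.14 on RW-SS-6 and 2.25 on DIO-SC-3. Fabp3 deviated by 2.38, 2.74 and 0.34 on the same arrays, and Ppara by 2.96, 0.55 and 0.57. Cpt1a (between -0.26 and -0.17), Acaa1a (between -0.12 and 0.20) and Acot1 (between -0.61 and 0.04) lay above all of the compared arrays on none of the 3. Acot2 (-0.13 on DIO-SC-3 and -0.42 on RW-SS-6), Ehhadh (-0.24 on DIO-SC-3) and Pex11a (0.09 on DIO-SC-3 and 0.25 on RW-SS-6) did so on only some of them. The same held for Slc27a1, Fabp3, Echs1 and Ppargc1a, which did not on DIO-SC-3, and for Angptl4, which did only on DIO-SC-7.

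**Figure D1:**
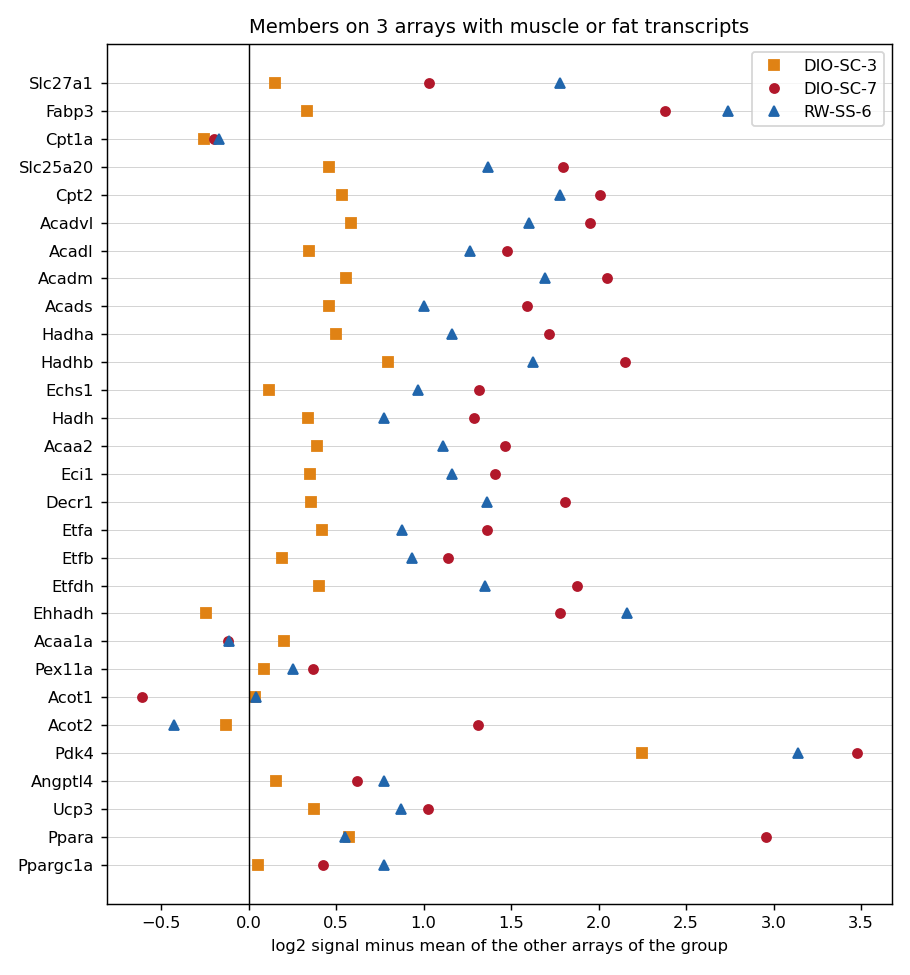
Each row is a member, and the x axis is its log2 signal on 1 array minus the mean of the arrays of its group that are not among these 3, for DIO-SC-3 (squares), DIO-SC-7 (circles) and RW-SS-6 (triangles). Pdk4 lies farthest right, at 2.25, 3.47 and 3.14, whereas Cpt1a lies left of 0 on all 3 arrays.

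Promoter sequences from RefSeq were available for 28 of the 32 listed genes (31 promoters, build GRCm38.p6, 250 bases before to 50 after the start of transcription). The element that PPAR-alpha with RXR binds is a direct repeat of 2 half-sites with 1 base between them (DR1), searched on both strands as AGGTCANAGGTCA with up to 2 of its 12 defined bases different. It was found in 4 of 28 members, Echs1, Etfa, Slc25a20 and Ucp3 (14.3%), and in 4.4% of 27025 genes with a promoter in the table. The half-site AGGTCA, which is contained in the DR1 letters, was found in 5 of 28 members (17.9%) and in 18.1% of all those genes. The element of the estrogen-related receptors, TNAAGGTCA, which overlaps the half-site, was found in 0 of 28 members and 1.43% of all those genes. A match describes letters and is not a bound site. The promoters of Ucp3, Slc25a20 and Acot1 are printed because these genes were called under smoke in obese animals without the 3 arrays, the first and second with a DR1 match and Acot1 with no match of any of the 3 motifs. Capitals mark DR1 matches and half-sites. The windows are chr7:100472741-100473040 for Ucp3, chr9:108661886-108662185 for Slc25a20 and chr12:84009252-84009551 for Acot1, all on the plus strand and written 5′ to 3′.
Ucp3: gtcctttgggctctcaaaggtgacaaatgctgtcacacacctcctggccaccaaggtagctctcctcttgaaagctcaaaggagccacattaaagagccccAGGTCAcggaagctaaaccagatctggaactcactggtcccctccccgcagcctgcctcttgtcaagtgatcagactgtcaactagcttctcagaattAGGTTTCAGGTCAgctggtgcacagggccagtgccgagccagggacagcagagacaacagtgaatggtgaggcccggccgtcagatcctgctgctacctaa
Slc25a20: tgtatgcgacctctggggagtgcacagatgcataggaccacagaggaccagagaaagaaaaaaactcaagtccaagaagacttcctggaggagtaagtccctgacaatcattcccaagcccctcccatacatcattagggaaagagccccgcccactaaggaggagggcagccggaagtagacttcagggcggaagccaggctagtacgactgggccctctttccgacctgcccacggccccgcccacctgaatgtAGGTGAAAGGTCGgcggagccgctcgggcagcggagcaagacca
Acot1: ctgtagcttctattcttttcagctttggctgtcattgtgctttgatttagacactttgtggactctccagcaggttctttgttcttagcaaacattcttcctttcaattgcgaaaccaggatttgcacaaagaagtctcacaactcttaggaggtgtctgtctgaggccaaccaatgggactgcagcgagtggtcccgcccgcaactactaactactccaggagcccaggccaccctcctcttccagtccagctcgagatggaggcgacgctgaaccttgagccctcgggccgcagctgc

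Over the whole list, mainstream smoke in obese animals gave the most calls. In DIO-MS against DIO-SC 9 of 29 members fell, where 9.76% of all genes fell, and 0 rose by limma, where 11.7% of all genes rose. Without the 3 arrays 8 of 29 fell, against 14.1% of all genes, and 0 rose, against 12.3%. At an unadjusted p below 0.05 also 0 members rose in either fit. The median member differed by -0.31 with all arrays and by -0.10 without the 3, and the median of all genes by -0.02 in both. In RW-MS against RW-SC 1 of 29 fell (8.07% of all genes fell), and 3 of 29 fell without the 3 arrays (12% of all genes), a share near or below that of all genes. The median member there differed by -0.02, and the median gene by -0.03.

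Sidestream smoke gave few calls among the members. DIO-SS against DIO-SC had 1 of 29 higher, where 4.26% of all genes were higher, and 2 of 29 higher without the 3 arrays (3.45%). RW-SS against RW-SC had 0 of 29 called by limma, where 2.17% of all genes were called, and 6 members had an unadjusted p below 0.05. It also had 0 of 29 without the 3 arrays (3.1% of all genes), with 6 again at an unadjusted p below 0.05. Setting the smokes against each other, DIO-MS against DIO-SS had 2 of 29 lower (8% of all genes lower), and 6 of 29 lower without the 3 arrays (11.9%). RW-MS against RW-SS had 1 of 29 lower (3.72%), and 2 of 29 lower without the 3 arrays (6.3%).

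Diet gave calls mainly in air. DIO-SC against RW-SC had 3 of 29 members higher, where 2.29% of all genes were higher, and 2 of 29 higher without the 3 arrays (2.6%). The median member differed by 0.26 with all arrays and by 0.04 without the 3, against -0.03 and -0.02 for all genes. DIO-SS against RW-SS had 1 of 29 higher (0.654%), and 0 of 29 called without the 3 arrays (1.48% of all genes called in either direction, 6 members at an unadjusted p below 0.05). DIO-MS against RW-MS had 0 of 29 called by limma with all arrays (1.21% of all genes) and 0 without the 3 (2.62%), with 5 and 6 members at an unadjusted p below 0.05. The comparisons DIO-SC against RW-SC, DIO-MS against DIO-SC and DIO-SS against DIO-SC share the DIO-SC arrays, 2 of which are among the 3 that stood apart.

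Among the genes of uptake, Fabp3, the fatty acid binding protein best known from heart muscle, spread more than any other member within groups, with a pooled SD of 0.74 without the 3 arrays, where the median gene had 0.15. Its lowest, median and highest log2 signals were 7.57, 9.25 and 10.03 in DIO-MS, 8.81, 9.12 and 10.41 in DIO-SS, 8.88, 10.63 and 12.54 in DIO-SC, 7.88, 9.32 and 9.79 in RW-MS, 8.20, 8.68 and 11.60 in RW-SS and 8.05, 9.09 and 10.09 in RW-SC. The DIO-SC arrays were spread widely, and 6 of 8 lay above all RW-SC arrays. Fabp3 was 2.56-fold higher in DIO-SC than in RW-SC (1.35 ± 0.43, adjusted p = 0.0381), and the call was lost without the 3 arrays (1.01 ± 0.38, adjusted p = 0.105). It fell in DIO-MS against DIO-SC (-1.37 ± 0.43, adjusted p = 0.016, and -1.03 ± 0.38, adjusted p = 0.0401 without the 3), although only 3 of 8 DIO-MS arrays lay below all DIO-SC arrays. Without DIO-MS-1 and DIO-MS-6 as well that call was lost (-0.81 ± 0.39, adjusted p = 0.16). These arrays are not among the 3, and no criterion for leaving them out is given here. They held the lowest DIO-MS signals of several members, such as Ppargc1a (5.52 and 5.49) and Acaa2 (10.35 and 10.33). Leaving them out therefore takes low values away and is not a neutral check. Slc27a1, a fatty acid transport protein, was not called in any of the 11 comparisons, with differences between -0.38 and 0.36 with all arrays.

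In the carnitine shuttle, Cpt1a makes the carnitine ester at the outer membrane and is the step that controls entry. It had 10.54, 10.74 and 10.87 (lowest, median and highest) in DIO-MS, 10.76, 10.83 and 11.02 in DIO-SS, 10.53, 10.76 and 10.92 in DIO-SC, 10.39, 10.55 and 10.65 in RW-MS, 10.40, 10.61 and 10.98 in RW-SS and 10.54, 10.78 and 10.91 in RW-SC. The RW-MS arrays were the lowest as a group, with 4 of 8 below all RW-SC arrays. Cpt1a fell in RW-MS against RW-SC (-0.23 ± 0.07, adjusted p = 0.0135), also without the 3 arrays (adjusted p = 0.0069). Its other 2 probe sets differed by 0.09 and 0.14 in that comparison and were not called, so the call rests on 1 of 3 probe sets. Cpt1a was also higher in DIO-SS than in RW-SS (0.24 ± 0.07, adjusted p = 0.05 after rounding and below the threshold before it), and the call was lost without the 3 arrays (0.22 ± 0.06, adjusted p = 0.0602).

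Slc25a20 is the carrier that exchanges acylcarnitine for carnitine across the inner membrane, and Cpt2 rebuilds the coenzyme A ester behind it. For Slc25a20 the lowest, median and highest signals were 9.98, 10.13 and 10.35 in DIO-SS, against 9.85, 9.93 and 11.71 in DIO-SC, the last being DIO-SC-7. Without DIO-SC-3 and DIO-SC-7 the highest DIO-SC array was at 9.97, and all 8 DIO-SS arrays lay above it. The difference was accordingly -0.05 ± 0.17 (adjusted p = 0.899) with all arrays and 0.24 ± 0.06 (adjusted p = 0.0171) without the 3, a change of sign. A second probe set of Slc25a20 differed by -0.17 with all arrays and by 0.14 without the 3 (adjusted p = 0.12 over all probe sets). Cpt2 was not called in any of the 11 comparisons with or without the 3 arrays.

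The mitochondrial beta-oxidation enzymes were the largest role among the members, with 11 genes, and 4 of 11 fell in DIO-MS against DIO-SC with all arrays (9.76% of all genes fell) and 4 of 11 without the 3 (14.1%). They were Acadm and Acadvl, acyl-CoA dehydrogenases of medium and very long chains, Hadhb, the thiolase subunit of the trifunctional protein, and Acaa2, a thiolase of the last step. Acadm had 9.98, 10.42 and 10.72 (lowest, median and highest) in DIO-MS, against 10.45, 10.84 and 12.77 in DIO-SC, where the highest array was DIO-SC-7 and the highest of the 6 arrays left without the 3 was 10.93. The groups overlapped, with 5 of 8 DIO-MS arrays below all DIO-SC arrays. Acadm fell by 0.68 ± 0.20 (adjusted p = 0.0119), and by 0.36 ± 0.10 without the 3 arrays (adjusted p = 0.00441). Without DIO-MS-1 and DIO-MS-6 as well the call was lost (-0.24 ± 0.09, adjusted p = 0.0643).

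Hadhb had 10.61, 10.88 and 10.98 in DIO-MS, against 10.87, 11.21 and 13.27 in DIO-SC, and 11.30 was the highest DIO-SC value without the 3 arrays. Only 3 of 8 DIO-MS arrays lay below all DIO-SC arrays. Hadhb fell by 0.66 ± 0.20 (adjusted p = 0.0122), and by 0.30 ± 0.07 without the 3 arrays (adjusted p = 0.000783). Its second probe set differed by -0.44 and by -0.10 without the 3 arrays and was not called. Acadvl fell by 0.59 ± 0.19 and Acaa2 by 0.58 ± 0.15 (adjusted p = 0.0172 and 0.00314). Without the 3 arrays these were 0.27 ± 0.07 and 0.35 ± 0.08 (adjusted p = 0.0017 and 0.00128). Leaving out the 3 arrays thus shrank each of the 4 differences while their errors shrank as well.

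The other 7 beta-oxidation enzymes were not called in DIO-MS against DIO-SC by the probe set that stands for the gene. Acadl, Acads, Hadha, Echs1, Hadh, Eci1 and Decr1 differed there by between -0.15 and 0.13 without the 3 arrays. Second probe sets went further for a pair of them: that of Decr1, a reductase for unsaturated chains, fell (-0.40, adjusted p = 0.013, and -0.23, adjusted p = 0.0079 without the 3). One of Hadh was higher without the 3 arrays (0.23, adjusted p = 0.0051) and not called with all (0.09, adjusted p = 0.54). Both other probe sets of Acaa2 fell in both fits. In regular weight animals 2 of 11 fell under mainstream smoke without the 3 arrays (12% of all genes fell), Acaa2 (-0.21 ± 0.08, adjusted p = 0.0446) and Eci1, an isomerase for unsaturated chains (-0.16 ± 0.06, adjusted p = 0.0319). With all arrays neither was called (adjusted p = 0.38 for Acaa2 and 0.479 for Eci1). Against sidestream smoke rather than air, obese animals in mainstream smoke had lower Acaa2 (-0.33 ± 0.08, adjusted p = 0.00108), Acadm (-0.30 ± 0.09, adjusted p = 0.0109) and Hadhb (-0.23 ± 0.06, adjusted p = 0.00482) without the 3 arrays. None of the 3 arrays belongs to DIO-MS or DIO-SS, so the differences are the same with all arrays, but their SE were 0.15, 0.20 and 0.20 there and none passed (adjusted p = 0.119, 0.335 and 0.463). Without DIO-MS-1 and DIO-MS-6 as well, Acaa2 kept its call (-0.23, adjusted p = 0.0305), and Acadm (-0.19, adjusted p = 0.173) and Hadhb (-0.17, adjusted p = 0.0804) lost theirs. All 8 DIO-MS arrays lay below all DIO-SS arrays for Acaa2, 3 of 8 for Acadm and 6 of 8 for Hadhb. Echs1, the enoyl-CoA hydratase, was lower in RW-MS than in RW-SS without the 3 arrays (-0.17 ± 0.06, adjusted p = 0.0342, against adjusted p = 0.137 with all arrays).

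Genes of electron transfer were not called in any of the 11 comparisons. Etfa and Etfb are the subunits of the electron transfer flavoprotein, and Etfdh passes their electrons to ubiquinone. In DIO-MS against DIO-SC they differed by -0.32 ± 0.12, -0.28 ± 0.11 and -0.38 ± 0.17 with all arrays, and by -0.10 ± 0.06, -0.11 ± 0.05 and -0.09 ± 0.06 without the 3. The same was found in the peroxisome, where Ehhadh, Acaa1a and Pex11a, a peroxisome membrane protein, were called in none of the 11 comparisons with or without the 3 arrays by the probe set that stands for the gene. A second probe set of Pex11a was lower in RW-MS than in RW-SS (-0.35, adjusted p = 0.021, and -0.23, adjusted p = 0.043 without the 3). It was higher in RW-SS than in RW-SC with all arrays (0.38, adjusted p = 0.033) and not called without the 3 (0.26, adjusted p = 0.058). Ehhadh had its highest signals on RW-SS-6 (9.45) and DIO-SC-7 (9.02), while the other arrays lay between 6.83 and 7.49.

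Acot1, a cytosolic thioesterase that frees fatty acids from coenzyme A and a classic target of PPAR-alpha in rodent liver, separated the smokes. Its lowest, median and highest signals were 8.24, 8.84 and 9.19 in DIO-MS, 9.44, 9.64 and 9.99 in DIO-SS and 8.53, 9.11 and 9.51 in DIO-SC. Regular weight animals had 8.34, 8.85 and 9.04 in RW-MS, 8.96, 9.46 and 10.28 in RW-SS and 8.85, 9.06 and 9.32 in RW-SC. In both diets sidestream smoke had the highest median and mainstream smoke the lowest. No DIO-MS array overlapped a DIO-SS array, and 6 of 8 RW-MS arrays lay below all RW-SS arrays.

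Acot1 was 1.78-fold lower in DIO-MS than in DIO-SS (-0.83 ± 0.14, adjusted p = 1.52e-05, and 8.69e-06 without the 3 arrays). It was 1.68-fold lower in RW-MS than in RW-SS (-0.75 ± 0.14, adjusted p = 0.000144, and 0.000173 without the 3 arrays). Against air it rose in DIO-SS (0.59 ± 0.14, adjusted p = 0.00618, and 0.51 ± 0.15, adjusted p = 0.0252 without the 3), with 6 of 8 arrays above all DIO-SC arrays. In RW-SS the difference from air was 0.46 ± 0.14 (adjusted p = 0.066), and 0.45 ± 0.14 without the 3 arrays (adjusted p = 0.0675). In mainstream smoke the differences from air were -0.25 ± 0.14 in obese and -0.29 ± 0.14 in regular weight animals (adjusted p = 0.219 and 0.167), and without the 3 arrays neither was called (adjusted p = 0.112 and 0.131). The interaction of sidestream smoke and diet was 0.13 ± 0.20 for Acot1 (adjusted p = 0.864), so the diets are not shown to differ. Acot2, its mitochondrial paralog, was not called in any comparison, and transcripts of such close paralogs can bind each other's probes.

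**Figure D2:**
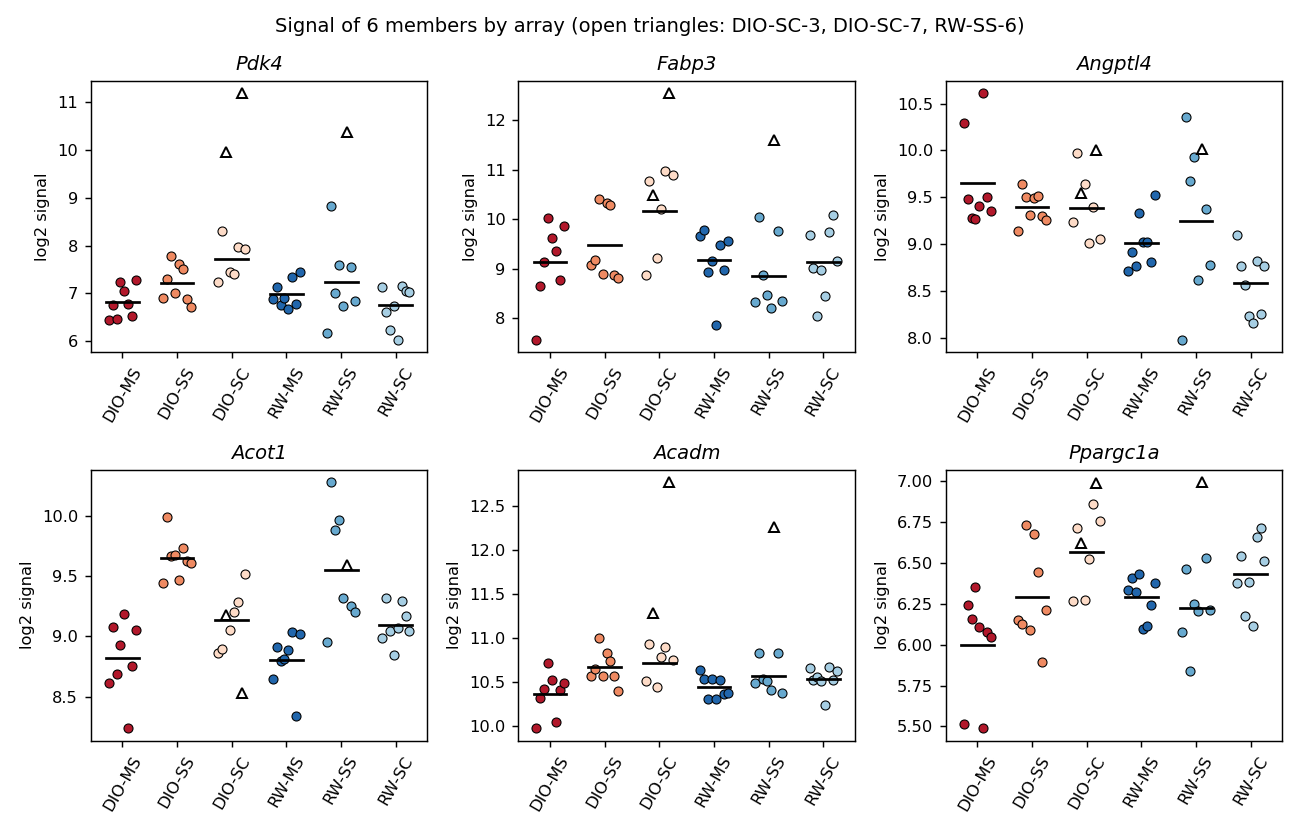
Log2 signal (y axis) of 6 members on each array, by group (x axis), where bars are group means without DIO-SC-3, DIO-SC-7 and RW-SS-6, which are drawn as open triangles. The DIO-SS points of Acot1 (9.44 to 9.99) lie wholly above its DIO-MS points (8.24 to 9.19), and all DIO-SC points of Pdk4 lie above its RW-SC points, of which the highest is 7.16.

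Pdk4, the kinase that shuts pyruvate dehydrogenase when fat is burned, was with all arrays the member with the largest difference between the diets in air. Its lowest, median and highest signals were 7.23, 7.94 and 11.19 in DIO-SC, against 6.03, 6.88 and 7.16 in RW-SC. All 8 DIO-SC arrays lay above all RW-SC arrays, as did all 6 left without the 3 arrays, of which the highest was 8.31. Pdk4 was 3.21-fold higher in DIO-SC than in RW-SC (1.68 ± 0.41, adjusted p = 0.00635), and 1.95-fold higher without the 3 arrays (0.97 ± 0.25, adjusted p = 0.0104).

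Under mainstream smoke Pdk4 had 6.43, 6.76 and 7.27 in DIO-MS, and 7 of 8 of these arrays lay below all DIO-SC arrays. It fell by 1.62 ± 0.41 in DIO-MS against DIO-SC (adjusted p = 0.00295), and by 0.90 ± 0.25 without the 3 arrays (adjusted p = 0.00481). In regular weight animals it had 6.67, 6.89 and 7.44 in RW-MS, and the difference from RW-SC was 0.24 ± 0.41 (adjusted p = 0.769). Its SE was 0.23 without the 3 arrays (adjusted p = 0.511). The interaction of mainstream smoke and diet was -1.86 ± 0.58 (adjusted p = 0.108), and -1.14 ± 0.34 without the 3 arrays (adjusted p = 0.0758), so the responses of the diets are not shown to differ. DIO-SS had 6.72, 7.15 and 7.77, against 6.17, 7.28 and 10.38 in RW-SS, and no comparison with sidestream smoke was called for Pdk4 with or without the 3 arrays.

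Angptl4 encodes a secreted inhibitor of lipoprotein lipase and is a target of PPARs. It had 9.02, 9.47 and 10.01 (lowest, median and highest) in DIO-SC, against 8.16, 8.67 and 9.10 in RW-SC, and 6 of 8 DIO-SC arrays lay above all RW-SC arrays. Angptl4 was 1.86-fold higher in DIO-SC than in RW-SC (0.90 ± 0.22, adjusted p = 0.00731), and 1.74-fold higher without the 3 arrays (0.80 ± 0.24, adjusted p = 0.0293). In smoke it had 9.27, 9.44 and 10.61 in DIO-MS, 9.14, 9.41 and 9.64 in DIO-SS, 8.71, 8.97 and 9.52 in RW-MS and 7.99, 9.52 and 10.36 in RW-SS. The RW-SS arrays covered nearly the whole range of the gene, and the difference of RW-SS from RW-SC was 0.76 ± 0.22 (adjusted p = 0.0582), and 0.66 ± 0.23 without the 3 arrays (adjusted p = 0.103). Angptl4 was called in no comparison but DIO-SC against RW-SC.

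**Figure D3:**
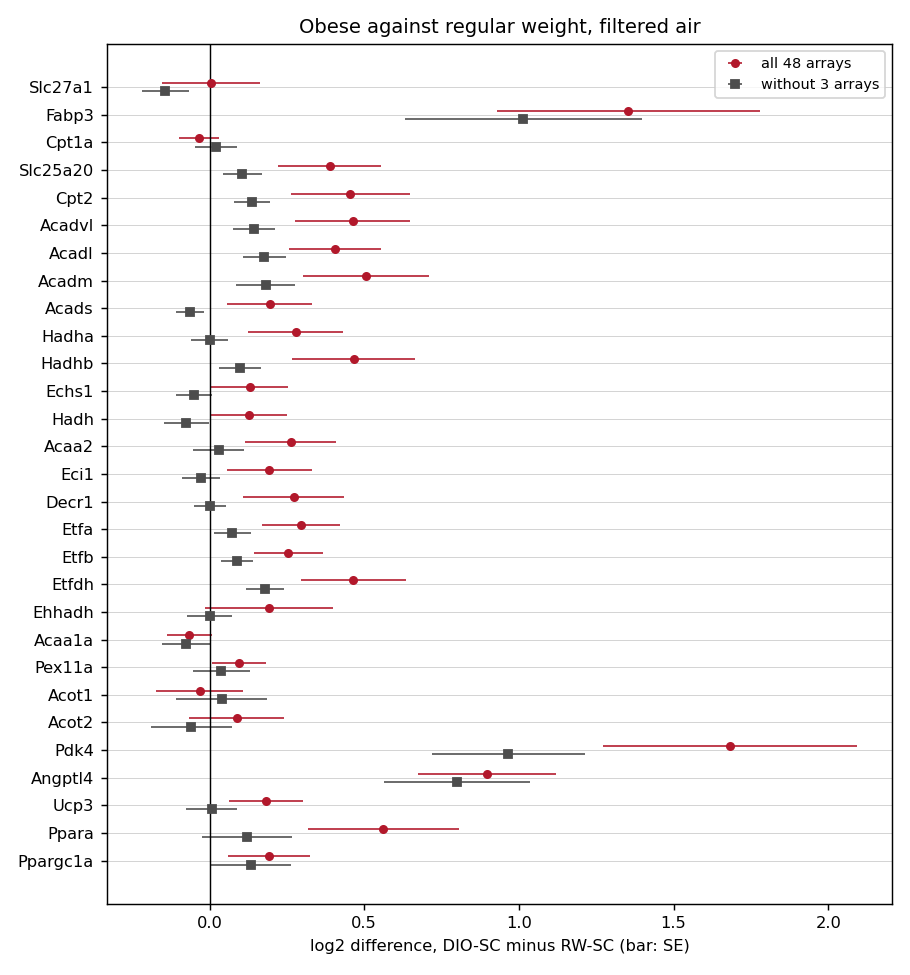
Log2 difference of each member between DIO-SC and RW-SC (x axis, bars are SE), with all 48 arrays (circles) and without DIO-SC-3, DIO-SC-7 and RW-SS-6 (squares). Most members move towards 0 without the 3 arrays, while Pdk4 (0.97), Fabp3 (1.01) and Angptl4 (0.80) stay to the right.

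Ucp3, a mitochondrial carrier whose gene follows fatty acid supply in muscle, fell under mainstream smoke in obese animals by both of its probe sets, and in regular weight animals by 1 of them. For the probe set with the higher mean, the lowest, median and highest signals were 6.41, 6.65 and 7.05 in DIO-MS, 6.87, 7.07 and 7.31 in DIO-SS and 6.77, 7.16 and 8.06 in DIO-SC. Of the 8 DIO-MS arrays, 7 lay below all DIO-SC arrays and 7 below all DIO-SS arrays. Ucp3 fell by 0.53 ± 0.12 in DIO-MS against DIO-SC (adjusted p = 0.000789), and by 0.36 ± 0.08 without the 3 arrays (adjusted p = 0.000809). Against DIO-SS the difference was -0.38 ± 0.12 (adjusted p = 0.0216), and adjusted p was 0.000173 without the 3 arrays. Its second probe set fell in DIO-MS against DIO-SC (-0.39, adjusted p = 0.0049 over all probe sets) and was not called against DIO-SS (-0.18, adjusted p = 0.26). In RW-MS against RW-SC the probe set with the higher mean differed by -0.09 ± 0.12 (adjusted p = 0.677), while the second fell by as much as in obese animals (-0.39, adjusted p = 0.0075, and 0.002 without the 3 arrays). The interaction of mainstream smoke and diet was -0.44 ± 0.17 by the one (adjusted p = 0.206) and -0.00038 by the other. A fall of Ucp3 in obese animals alone is therefore not shown.

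The regulators were Ppara, which encodes the receptor itself, and Ppargc1a. Ppargc1a had 5.49, 6.09 and 6.36 (lowest, median and highest) in DIO-MS, 5.89, 6.18 and 6.73 in DIO-SS, 6.27, 6.67 and 6.99 in DIO-SC, 6.10, 6.33 and 6.43 in RW-MS, 5.84, 6.23 and 7.0 in RW-SS and 6.11, 6.45 and 6.71 in RW-SC. The DIO-MS arrays were the lowest as a group, and 7 of 8 lay below all DIO-SC arrays. It fell by 0.63 ± 0.13 in DIO-MS against DIO-SC (adjusted p = 0.00035), and by 0.57 ± 0.13 without the 3 arrays (adjusted p = 0.000779). Of its other 4 probe sets 3 were also called lower there in both fits. In RW-MS it differed from RW-SC by -0.14 ± 0.13 (adjusted p = 0.532, and 0.445 without the 3 arrays). In air, 1 of those 4 was called higher in DIO-SC than in RW-SC (0.39, adjusted p = 0.035), and not without the 3 arrays (0.34, adjusted p = 0.084).

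Ppara had 5.93, 6.52 and 6.68 in DIO-MS, 6.53, 6.78 and 6.95 in DIO-SS and 6.30, 6.78 and 9.63 in DIO-SC, the last on DIO-SC-7, and 7.06 was the highest DIO-SC array without the 3. It fell by 0.74 ± 0.24 in DIO-MS against DIO-SC (adjusted p = 0.0232), and the call was lost without the 3 arrays (-0.30 ± 0.15, adjusted p = 0.123). Against DIO-SS it was -0.40 ± 0.24 (adjusted p = 0.288) with all arrays and called without the 3 (-0.40 ± 0.13, adjusted p = 0.0279), a call that was lost without DIO-MS-1 and DIO-MS-6 as well (-0.34 ± 0.14, adjusted p = 0.127). Which of these comparisons called Ppara therefore turned on the arrays in the fit.

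**Figure D4:**
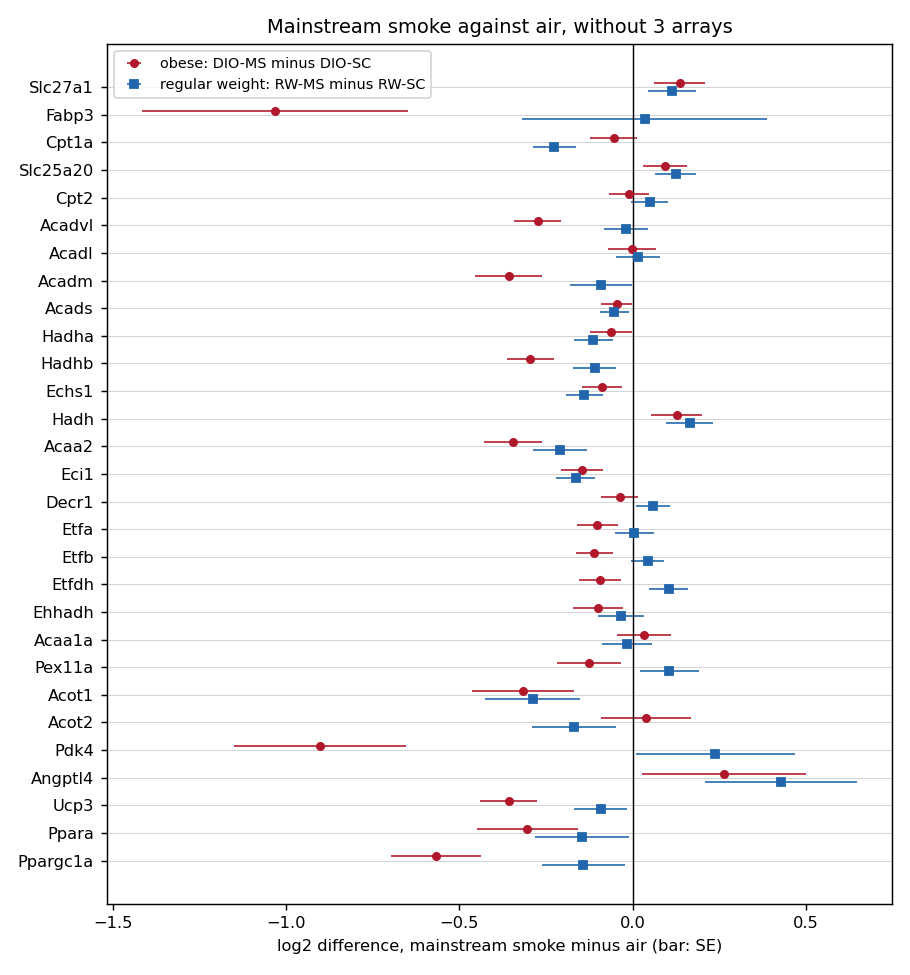
Log2 difference of each member between mainstream smoke and air (x axis, bars are SE), without DIO-SC-3, DIO-SC-7 and RW-SS-6, in obese (circles) and regular weight animals (squares). In obese animals Fabp3 (-1.03), Pdk4 (-0.90) and Ppargc1a (-0.57) lie farthest left, and in regular weight animals Acot1 (-0.29), Cpt1a (-0.23) and Acaa2 (-0.21) do.

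Neither test of whether the diets respond differently called a member. The interaction of mainstream smoke and diet had 0 of 29 called by limma (0.888% of all genes), with 10 members at an unadjusted p below 0.05, and 0 without the 3 arrays (1.15%), with 7 at an unadjusted p below 0.05. The interaction of sidestream smoke and diet had 0 of 29 called (0.654%), with 12 at an unadjusted p below 0.05, and 0 without the 3 arrays (0.718%), with 2 at an unadjusted p below 0.05. These percentages are at the adjusted p, and the unadjusted counts have no share of all genes to be set against. The median member had -0.31 for the mainstream interaction, and -0.09 without the 3 arrays. For the sidestream interaction it had -0.37, and -0.01 without the 3 arrays. Calls made in obese animals and not in regular weight animals are therefore not a shown difference between the diets.

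Levels of heart muscle transcripts differed from lung to lung also on the 45 arrays left without the 3, and many members moved with them. The cardiac muscle list held 10 genes, among them Myh6, Tnni3 and Nppa, and no member. Its score, the mean deviation of its genes from their mean over all arrays, ranged without the 3 arrays from -2.41 to 0.86 in DIO-MS, -1.0 to 1.21 in DIO-SS, -1.17 to 1.5 in DIO-SC, -1.46 to 0.80 in RW-MS, -1.37 to 1.09 in RW-SS and -1.82 to 1.0 in RW-SC. The group medians were 0.07, -0.42, 1.11, 0.37, -1.10 and -0.43 in that order, so that DIO-SC was the highest. In DIO-SC against RW-SC 0 of 10 cardiac genes were called and their median difference was 0.74 without the 3 arrays. In DIO-MS against DIO-SC 1 of 10 was called lower, and the median was -0.81. Markers of other tissues were lower there as well without the 3 arrays, with 3 of 8 white fat markers (median -0.46), 2 of 5 brown fat markers (-0.50) and 3 of 11 skeletal muscle markers (-0.23) called lower. With all arrays these were 4 of 8 (-1.29), 3 of 5 (-1.77) and 4 of 11 (-1.16). Cidea is on both fat lists, so the white and brown fat counts are not separate. Of lung cell markers, 3 of 4 of alveolar type 1 cells (median -0.17) and 2 of 4 of endothelium (-0.25) were called lower without the 3 arrays, against 1 of 4 and 0 of 4 with all. In RW-MS against RW-SC also 3 of 4 and 2 of 4 were called lower without the 3 arrays (medians -0.23 and -0.25). Of type 2 cell markers, 1 of 4 was higher and 0 were lower in DIO-MS against DIO-SC without the 3 arrays (median 0.08). Of club cell markers 1 of 3 was lower there (-0.02). The part of these tissues and cells in the fall of the members was not tested.

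After the group means were taken out, 28 of 29 members correlated positively with the cardiac score over the 45 arrays (median Pearson r 0.44). In permutation tests within groups, 20 of 29 had a Benjamini-Hochberg adjusted p below 0.05 over the 29. The relation was computed for the members only. Whether they follow the score more often than other genes do is therefore not known here. Fabp3 followed the score most closely, with r = 0.99 and Spearman rho = 0.99 (permutation p = 1e-05 for each, the smallest that 100000 permutations can give, adjusted p = 7.2e-05 and 5.8e-05), and r = 0.99 without the 2 arrays farthest from the median score. Acadm had r = 0.78 and rho = 0.81, Pdk4 r = 0.77 and rho = 0.82, Ppargc1a r = 0.71 and rho = 0.75, Hadhb r = 0.65 and rho = 0.68, and Etfa r = 0.65 and rho = 0.68. Their adjusted permutation p lay between 5.8e-05 and 0.00019, and without the 2 farthest arrays r was 0.74, 0.77, 0.65, 0.58 and 0.61 in the same order. Ucp3 (r = -0.05, rho = -0.03), Cpt1a (r = 0.09, rho = 0.02) and Acaa1a (r = 0.07, rho = 0.05) showed no such relation (adjusted permutation p between 0.64 and 0.92).

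**Figure D5:**
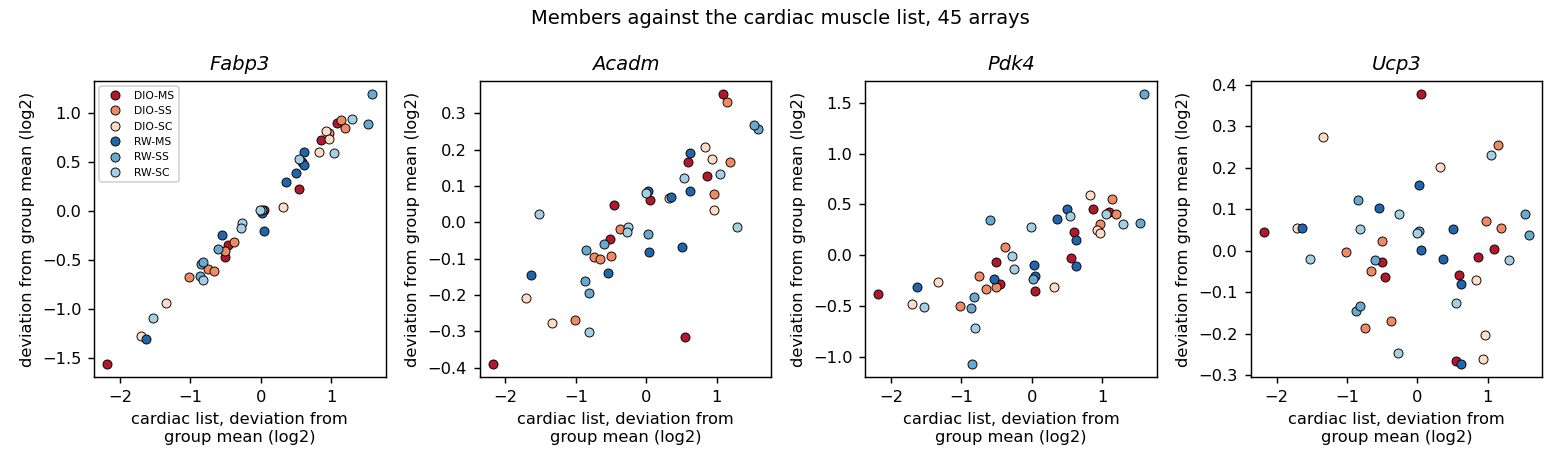
Deviation of 4 members from their group mean (y axis, log2) against that of the cardiac muscle list (x axis, log2) on 45 arrays, coloured by group. Fabp3 follows the list almost on a line (r = 0.99), Acadm and Pdk4 with more scatter (r = 0.78 and 0.77), and Ucp3 does not (r = -0.05).

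A fit without the 3 arrays that carried the cardiac score as a covariate was added after these values had been seen. In it the difference of Pdk4 between DIO-SC and RW-SC was 0.66 ± 0.17 (adjusted p = 0.0102) and that of Fabp3 was 0.40 ± 0.06 (adjusted p = 1.24e-05), while Angptl4 lost its call (0.73 ± 0.24, adjusted p = 0.0624). Fabp3 followed the score with r = 0.99, so the covariate took out nearly all of its spread within groups. Its adjusted p values in this fit rest on that. Between DIO-MS and DIO-SC the difference was -0.62 ± 0.17 for Pdk4 (adjusted p = 0.00394), -0.47 ± 0.06 for Fabp3 (adjusted p = 4.99e-08) and -0.43 ± 0.10 for Ppargc1a (adjusted p = 0.000619). Ucp3, which did not follow the score, had -0.36 ± 0.08 there (adjusted p = 0.00111). In total 9 of 29 members were called in DIO-MS against DIO-SC, 8 lower (13.3% of all genes lower) and Slc27a1 higher (10.9% of all genes higher). In RW-MS against RW-SC 7 of 29 were lower (12.4% of all genes lower), and in RW-SS against RW-SC 4 of 29 were higher (1.43% of all genes higher). The interaction of sidestream smoke and diet was called for Pdk4 in this fit alone (-0.88 ± 0.22, adjusted p = 0.0418, where 0.46% of all genes were lower). The score is a mean over 10 genes and not a measure of heart tissue. The part of the cardiac transcripts in the group differences was not tested.

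Further genes of the pathway that are not on the list were counted from 4 sets of 85 genes in all, of which 74 were measured. In DIO-MS against DIO-SC 6 of 74 rose and 18 fell (21.4% of all genes called), and without the 3 arrays 6 rose and 15 fell (26.3%). In RW-MS against RW-SC 5 rose and 5 fell (14.7%), and 8 rose and 10 fell without the 3 arrays (20.9%). Among 22 further beta-oxidation enzymes 6 fell and 0 rose in DIO-MS against DIO-SC (9.76% of all genes fell and 11.7% rose). Without the 3 arrays also 6 of these enzymes fell and 0 rose (14.1% and 12.3% of all genes). Their largest difference was that of Acaa1b, a peroxisomal thiolase, with means of 5.19 in DIO-MS and 8.19 in DIO-SC (-3.00 ± 0.16, adjusted p = 7.8e-20, and -2.90 ± 0.14 without the 3). It fell likewise in RW-MS against RW-SC (-2.46 ± 0.16, adjusted p = 1.6e-16), in DIO-MS against DIO-SS (-3.12 ± 0.16) and in RW-MS against RW-SS (-2.70 ± 0.16, and -2.56 ± 0.14 without the 3). The list member Acaa1a, its close paralog, differed by 0.02 ± 0.07 in the same comparison (adjusted p = 0.877).

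Among 13 genes of carnitine handling, uptake and activation 3 rose and 4 fell in DIO-MS against DIO-SC with all arrays, where 11.7% of all genes rose and 9.76% fell, and also 3 rose and 4 fell without the 3 (12.3% and 14.1%). Fabp1, a fatty acid binding protein that is also a marker of mouse alveolar macrophages, averaged 6.26 in DIO-MS and 9.04 in DIO-SC (-2.78 ± 0.20, adjusted p = 3.8e-15, and -2.95 ± 0.21 without the 3). It was lower in RW-MS than in RW-SC as well (-2.33 ± 0.20, adjusted p = 2e-12), and than in sidestream smoke in both diets (-2.47 ± 0.20 in obese and -2.12 ± 0.20 in regular weight animals, the last -2.11 ± 0.20 without the 3). Among 25 further genes that respond to PPARs 3 rose and 6 fell in DIO-MS against DIO-SC (11.7% and 9.76% of all genes). Without the 3 arrays 3 rose and 4 fell, near the shares of all genes (12.3% and 14.1%). Vnn1, a pantetheinase, averaged 11.38 in DIO-MS and 8.73 in DIO-SC (2.65 ± 0.13, adjusted p = 1.9e-21, and 2.47 ± 0.12 without the 3). It rose in RW-MS against RW-SC too (2.05 ± 0.13, adjusted p = 4.1e-17), and was higher in mainstream than in sidestream smoke by 2.40 ± 0.13 in obese and 2.12 ± 0.13 in regular weight animals, the last 2.12 ± 0.11 without the 3. The 6 measured alveolar macrophage markers include Fabp1, so their counts and score are not separate from its fall. With Fabp1 among the lower, 1 of these markers was higher and 3 were lower in DIO-MS against DIO-SC, and likewise in RW-MS against RW-SC. Their score ranged from -0.92 to -0.04 in DIO-MS and from -0.38 to 0.23 in RW-MS, against 0.05 to 0.36 in DIO-SC without the 3 arrays (-0.60 to 0.36 with them) and 0.06 to 0.31 in RW-SC. The part of macrophage transcripts in these differences was not tested.

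In the other comparisons few of the 74 were called. DIO-SS against DIO-SC had 1 higher and 3 lower (6.85% of all genes called), with Acsl4, an acyl-CoA synthetase for arachidonic acid, higher (0.62 ± 0.13, adjusted p = 0.0011) and Lpin1, a phosphatidate phosphatase, lower (-0.56 ± 0.12, adjusted p = 0.0029). Without the 3 arrays it had 2 higher and 2 lower (7.03%), with Acsl4 at 0.57 ± 0.13 and Lpin1 at -0.43 ± 0.08, both called. The third largest difference was that of Fabp5 with all arrays (-0.39 ± 0.13, adjusted p = 0.046) and of Klf10 without the 3 (-0.32 ± 0.09, adjusted p = 0.029). DIO-SC against RW-SC had 1 higher, Lipe, the hormone-sensitive lipase (0.74 ± 0.22 with adjusted p = 0.026, or without the 3 arrays 0.44 ± 0.11 with adjusted p = 0.0065), where 8.28% of all genes were called. Without the 3 arrays Fabp1 was higher as well (0.67 ± 0.21, adjusted p = 0.038), and Pdk1, another kinase of pyruvate dehydrogenase, was lower (-0.34 ± 0.07, adjusted p = 0.00068), where 6.72% of all genes were called. Lipe is most abundant in fat, and the median difference of the 8 white fat markers in this comparison was 0.95 with all arrays and 0.31 without the 3. In DIO-SS against RW-SS Pdk1 alone was called, lower (-0.36 ± 0.10, adjusted p = 0.05 after rounding, and -0.35 ± 0.06, adjusted p = 0.00098 without the 3), where 0.976% and 1.48% of all genes were called. In DIO-MS against RW-MS 0 of 74 were called by limma with all arrays (1.21% of all genes, 16 at an unadjusted p below 0.05), and 1 was higher and 5 lower without the 3 (2.62%). The largest of these differences were those of Cidec, a lipid droplet protein that is also on the white fat list (-0.75 ± 0.18, adjusted p = 0.015), Acaa1b (-0.50 ± 0.13, adjusted p = 0.025) and Pparg, the receptor PPAR-gamma (-0.41 ± 0.09, adjusted p = 0.0051). RW-SS against RW-SC had 0 of 74 called by limma (2.17% of all genes), with 11 at an unadjusted p below 0.05, and 0 without the 3 arrays (3.1%), with 12.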

How the data were processed

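RNA of 48 mouse lungs was measured on Affymetrix arrays of 22690 probe sets. The authors deposited log2 signals from RMA, per the submitters' processing notes, a method that subtracts background, quantile normalizes arrays and summarizes the probes of a probe set. The RMA software, its version and the set of arrays it ran on are not given in sources read here. Array medians lay between 7.82 and 7.94, and the number of arrays limits the precision. In RW-MS and in RW-SS, animals 7 and 8 carry source numbers 5 and 6 again, and were taken as separate animals.

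The 20380 probe sets with 1 symbol in the array's annotation were used. The one with the highest mean stood for its gene, which gave 12393 genes. A mean per group was fitted over all 48 arrays with limma 3.58.1 in R 4.3.3 (lmFit, eBayes), for 11 contrasts, two-sided. Benjamini-Hochberg adjustment ran within each contrast, over its 12393 genes. In a simulation of DIO-SC against RW-SC over 12393 genes, noise was drawn independently with the SD of each gene in RW-SC. That group holds none of the 3 arrays that stood apart. There 88% of genes changed by 0.5 and 99% of those changed by 1 were called. Members spread more in the real fit with all 48 arrays (pooled SD of Acadm 0.42, against 0.18 without the 3), so these shares need not hold for them.

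The members, all gene lists and the 3 arrays left out were chosen with earlier results of these data known. Members described in full were those called (the 6 with the largest differences where more were) and those whose call changed without the 3 arrays. Of further pathway genes, the 3 called with the largest differences in a comparison could be named. Alternatives were array weights, a trended and robust fit, centring, the mean of probe sets, a filter on dim genes, the compared groups alone, a replicate block, and leaving out arrays.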

Additional observations from a re-analysis of the deposited data

Results flagged for a closer look

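Each group of 8 arrays was searched for 1 array far from the others, by a gap to its neighbour, as a share of the range of the group, above the critical value of Dixon's test, which chance gives in about 1 of 20 groups. Over all 29 members and 6 groups 46 of 174 cases met it, 20 on DIO-SC-7 and 19 on RW-SS-6. Among the members described in full, the log2 signals on DIO-SC-7 were 11.71 for Slc25a20, 12.77 for Acadm, 13.27 for Hadhb, 11.72 for Echs1, 12.46 for Acaa2, 11.23 for Eci1 and 9.63 for Ppara. On RW-SS-6 they were 11.37 for Slc25a20, 12.26 for Acadm, 12.65 for Hadhb, 11.45 for Echs1, 11.995 for Acaa2, 10.94 for Eci1 and 7.98 for Ucp3. These arrays also carried the fat markers given above.

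Among the members described in full a further 3 single arrays lay low in their groups. They were Fabp3 on RW-MS-5 at 7.88, Acadm on RW-SC-5 at 10.24 and Ppara on RW-SS-8 at 5.60. Of the other members, Ehhadh on DIO-MS-6 (6.83), Pex11a on RW-SS-8 (7.79) and Acot2 on RW-MS-8 (4.74) were also flagged as low. Decr1 on DIO-MS-2 (10.19) was flagged as high. With all arrays the response of Etfdh to sidestream smoke ran in opposite directions in the diets, with an interaction of -0.62 (limma, adjusted p = 0.256). Etfdh was at 11.52 on DIO-SC-7, 10.04 on DIO-SC-3 and 10.98 on RW-SS-6, against means of 9.64 and 9.63 on the other DIO-SC and RW-SS arrays. Without the 3 arrays the directions were no longer opposite, and the interaction was -0.17 (limma, adjusted p = 0.587).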

How the results depend on the processing

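The counts of members called moved by more than 1.5 times mostly with the arrays in the fit. Without DIO-SC-3, DIO-SC-7 and RW-SS-6 they were 0 for DIO-SS against RW-SS, 3 for RW-MS against RW-SC, 2 for DIO-SS against DIO-SC, 2 for RW-MS against RW-SS and 6 for DIO-MS against DIO-SS. Without DIO-MS-1 and DIO-MS-6 as well they were 5 for RW-MS against RW-SC, 1 for RW-SS against RW-SC, 3 for DIO-SS against DIO-SC and 2 for RW-MS against RW-SS. With the cardiac covariate, added after seeing the data, they were 1 for DIO-MS against RW-MS, 7 for RW-MS against RW-SC, 4 for RW-SS against RW-SC, 4 for DIO-SS against DIO-SC, 6 for RW-MS against RW-SS, 9 for DIO-MS against DIO-SS and 1 for the sidestream interaction. With only the arrays of the compared groups they were 1 for DIO-SC against RW-SC, 0 for DIO-SS against RW-SS, 5 for RW-MS against RW-SC, 3 for DIO-MS against DIO-SC and 7 for DIO-MS against DIO-SS. Array weights gave 1 for DIO-MS against RW-MS, 2 for RW-MS against RW-SC, 4 for DIO-MS against DIO-SC, 2 for RW-SS against RW-SC, 2 for DIO-SS against DIO-SC and 2 for RW-MS against RW-SS. The mean of all probe sets gave 0 for DIO-SS against RW-SS, 0 for RW-MS against RW-SC and 1 for DIO-MS against DIO-SS. Centring on medians and a filter on genes with a mean above 6 each gave 1 for RW-SS against RW-SC. Leaving out DIO-SC-3, DIO-SC-7 or RW-SS-6 singly gave 7 to 13 for DIO-MS against DIO-SC, 2 to 4 for DIO-MS against DIO-SS, 2 to 8 for DIO-SC against RW-SC, 1 to 2 for DIO-SS against DIO-SC, 0 to 1 for DIO-SS against RW-SS, 1 for RW-MS against RW-SC, 1 to 3 for RW-MS against RW-SS, 0 to 2 for RW-SS against RW-SC and 0 for the other 3. The cause of these moves was not tested.

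Pairs of samples with the same replicate number had deviations correlated between -0.39 and 0.48 (median 0.04, 42 of 120 pairs over 0.1). Pairs with other numbers had between -0.56 and 0.56 (median -0.01, 268 of 840 pairs over 0.1). The ranges overlap, and whether the numbers mark a pairing or a batch is not known here. With the number as a block, RW-SS against RW-SC had 1 member called and the other counts stayed within 1.5 times.

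Of 299 single values under these alternatives 237 kept their direction and side of the threshold, 28 lost a call, 28 gained one and 6 reversed. Cpt1a in RW-MS against RW-SC was 0.00024 with the mean of its probe sets. Slc25a20 in DIO-SS against DIO-SC was 0.24 without the 3 arrays and without the 5, -0.046 to 0.17 without 1 of the 3 arrays, 0.19 with array weights and 0.25 with the covariate. Pdk4 and Ppargc1a in DIO-MS against DIO-SC and all 3 calls of Acot1 held in all 13 alternatives.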
